A study of Mus musculus with 16 samples.

Results

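Ethanol feeding was compared with a control diet in the livers of wild-type mice by RNA sequencing. The comparison used 8 of the 16 libraries of the series, chosen by their treatment labels: 4 libraries of wild-type liver on ethanol diet and 4 of wild-type liver on control diet. The other 8 libraries came from mice with a liver-specific knockout of Zfp36l1, labelled LKO, with 4 on ethanol diet and 4 on control diet. They entered the model only to share its estimate of the spread and to set their own ethanol response beside that of wild-type liver. Zfp36l1 encodes an RNA-binding protein that binds AU-rich elements in mRNA and promotes mRNA decay, and the study asked how it acts on Fgf21 mRNA and on alcoholic fatty liver and inflammation. Strain, sex, age, the make-up and length of the diet, and the promoter that drives the knockout are not given in the sources used here. The wild-type control libraries are called control libraries 1 to 4 and the wild-type ethanol libraries are called ethanol libraries 1 to 4, and values are listed in that order throughout. Each library title carries its own number in the place of an animal number, but the labels do not say that libraries came from separate animals. The p-values therefore measure the spread between these 4 libraries a group, which may be technical in part.

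The liver takes up most ingested ethanol. Alcohol dehydrogenases in the cytosol, CYP2E1 in the endoplasmic reticulum and catalase in peroxisomes oxidise it to acetaldehyde, and aldehyde dehydrogenases turn this into acetate. Long ethanol exposure is known for fat storage in hepatocytes, for oxidative and endoplasmic reticulum stress, and for activation of Kupffer cells, the resident macrophages of the liver. Hepatocytes around the central vein carry most CYP2E1 and glutamine synthetase, while those around the portal vein carry most urea cycle and gluconeogenic enzymes.

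One library stood apart from all others before any group was compared. Ethanol library 2 ordered genes with a Spearman correlation of 0.664 to 0.721 with the other 7 wild-type libraries, while those 7 correlated among themselves at 0.883 to 0.977, over the 11298 genes kept. It held 9890475 reads, against 19069903 to 24364276 in the other 7, and 22.5% of its reads were from mitochondrial genes, against 3.64% to 6.97%. Of the 11298 genes analysed, its level lay outside the range of the other 7 libraries for 8287 genes (73.35%), and was the lowest for 6651 of these. For ethanol library 4, the next most extreme, this was 4501 genes (39.84%).

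Ethanol library 2 also held transcripts of nervous tissue. The 6 genes listed here were chosen after their values were seen. Mbp, a main protein of central myelin, stood at 120.5 FPKM in this library and at no more than 2.51 FPKM in the other 15. The myelin genes Mobp, Mag and Mog stood at 38.9, 18.5 and 4.27 FPKM, Gfap of astrocytes at 24.9 FPKM and Snap25 of synapses at 16.2 FPKM. The sum of these 6 genes was 223.3 FPKM in ethanol library 2 and 1.58 to 4.83 FPKM in the other 15 libraries of the series. The 4 Y-linked genes Ddx3y, Kdm5d, Eif2s3y and Uty summed to 2.55 FPKM there, with 65 reads on Ddx3y, and to at most 0.0580 FPKM in the other 15. Xist, the RNA that coats the inactive X chromosome of female mammals, stood at 6.62 FPKM there and at 13.7 to 49.4 FPKM in the other 15. The 5 erythroid markers summed to 2160 FPKM there and to 100.3 to 286 FPKM in the other 7 wild-type libraries. Of these 5, the haemoglobin genes Hba-a1, Hba-a2 and Hbb-bs stood at 1025, 231 and 888 FPKM there. In the controls they stood at 34.3 to 93.7, 1.80 to 9.79 and 61.9 to 176 FPKM. Hbb-bt, at 15.1 FPKM, lay within the control range of 7.30 to 15.9 FPKM. Alas2, at 1.64 FPKM, lay below the controls, at 4.48 to 6.36 FPKM. mt-Nd6, a subunit of respiratory complex I, stood at 128406 FPKM against 1829 to 3358 FPKM in the controls. The part of these transcripts in the results was not tested. Results are therefore given with and without ethanol library 2.

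**Figure D1:**
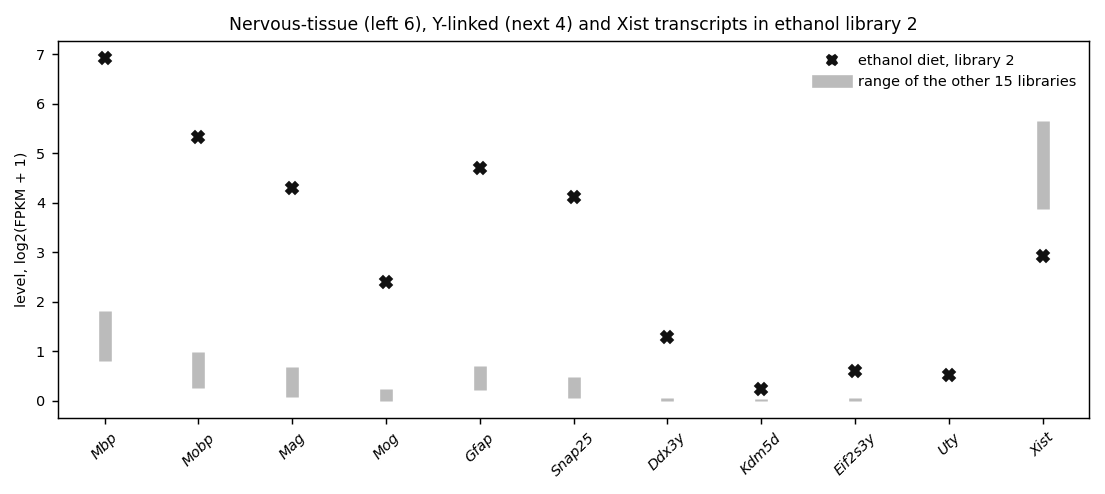
Level of 6 nervous-tissue genes, 4 Y-linked genes and Xist on a log2(FPKM + 1) axis, as crosses for ethanol library 2 and as grey bars for the range of the other 15 libraries of the series. The cross lies above the grey range for the first 10 genes and below it for Xist.

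The labelled tissue was checked against its markers. Alb, the serum albumin gene of hepatocytes, stood at 42047 to 60924 FPKM in the controls and at 22999.7 to 57889.7 FPKM under ethanol. The 12 hepatocyte markers summed to 72821 to 89312 FPKM in the controls and to 59524 to 93595 FPKM under ethanol (exact permutation test over the libraries, two-sided, p = 0.343, and p = 0.457 without ethanol library 2). The sum hides ethanol library 2, where Apoa1 stood at 34502 FPKM, against 5675 to 10826 FPKM in the controls. Trf and Serpina1c also lay above every control there. Alb, Apob, Ttr, Serpina1a, Serpina1b, Cps1, Hnf4a, Fgb and Ahsg lay below every control there. Over the summed marker lists of 11 cell types, the unadjusted p of the same exact test ran from 0.0571 to 0.8286, where the design allows none below 0.0286. Adjusted over 15 library-level values the smallest was 0.429, and a single list at the smallest possible p could not have passed, so these tests do not show that the groups were alike in cell types. Pancreatic acinar, adipocyte and skeletal muscle markers summed to at most 0.538, 0.521 and 3.39 FPKM in any wild-type library. In bulk tissue, fewer cells of a type and less RNA per cell cannot be told apart.

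Ethanol changed 472 of 11298 genes in wild-type liver at an adjusted p under 0.05, or 4.18%: 292 were higher (2.58%) and 180 were lower (1.59%). All tests across genes are limma's moderated test on log2(FPKM + 1) with Benjamini-Hochberg adjustment, and a log2 difference is ethanol minus control on that scale. It understates the change of genes with low FPKM. Calls are those on the deposited FPKM with no further scaling and no further term unless one is named. In parentheses, "7-library fit" gives the log2 difference and the adjusted p without ethanol library 2, and a gene named as called with all libraries was called in that fit too unless a lost call is stated. "Lost without" names each wild-type library whose omission raised the adjusted p of a called gene to 0.05 or more, followed by that adjusted p or its range. Without ethanol library 2, 1071 genes were called (9.48%), 817 higher (7.23%) and 254 lower (2.25%). The calls with all libraries included 442 of those genes, all in the same direction. The count moved with other libraries too: it was 146 to 156 without control library 1, 2 or 4, 245 without ethanol library 4, and 940 without ethanol library 1. A fit of the 8 wild-type libraries alone, with fewer libraries to estimate the spread, called 58, and 714 without ethanol library 2. Of the 472 genes, 113 were called without each of the 8 wild-type libraries in turn, 72 of them higher and 41 lower. The split into higher and lower calls depended on scaling: it was 470 to 462 after quantile normalization, 133 to 120 with equal FPKM sums and 307 to 425 with median-of-ratios scaling, and 578 to 520 with quantile normalization without ethanol library 2. Counts of list members called are to be set beside the shares over all genes. Those were 2.58% higher and 1.59% lower, and 7.23% and 2.25% without ethanol library 2. With all libraries, 2225 of the 11298 genes had an unadjusted p under 0.05 in the limma test. No list was tested as a set.

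The direction of the calls was the same in separate subsets. Wild-type libraries 1 and 2 of each group carry higher title numbers than libraries 3 and 4, and the labels do not say what the numbers mean. All 472 genes had the same sign of difference within libraries 1 and 2 and within libraries 3 and 4, and 469 had it in libraries 1 and 2 when ethanol library 2 was left out. The genes were called on these same libraries, so this is a description. The 4 control and 4 ethanol libraries did not overlap for 428 of the 472 genes and for 1138 of all 11298 genes (10.1%). Without ethanol library 2, 2341 genes did not overlap (20.7%).

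**Figure D2:**
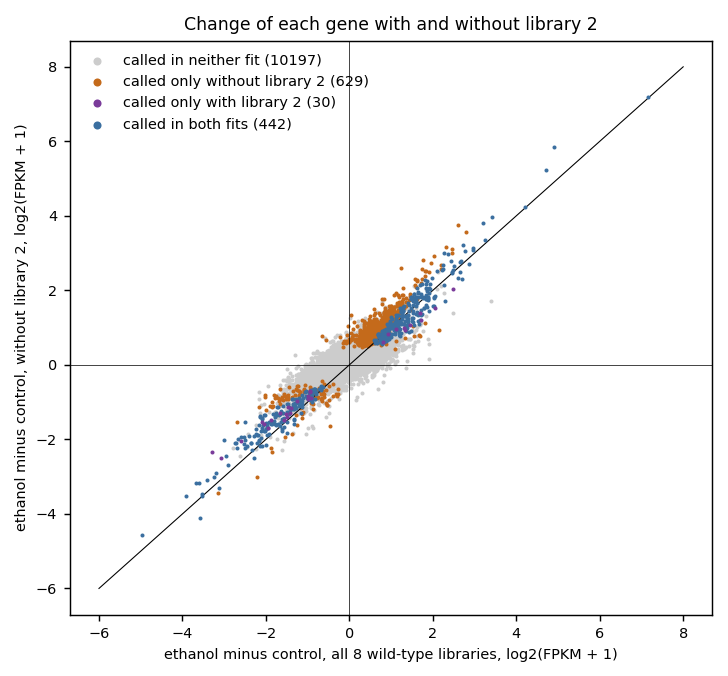
Each point is 1 of 11298 genes, with the ethanol minus control difference from all 8 wild-type libraries on the horizontal axis and without ethanol library 2 on the vertical axis, both in log2(FPKM + 1). The 442 genes called in both fits run along the diagonal line, and most of the 629 genes called only without library 2 lie above it.

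Cyp2b10, a cytochrome P450 that marks activation of the xenobiotic receptor CAR, had the largest rise of the genes called. The gene lies at chr7:25897620-25926624 of GRCm38. It stood at 0.739, 2.71, 1.99 and 2.83 FPKM in the control libraries and at 991, 373, 204 and 391 FPKM in the ethanol libraries. The lowest ethanol library was far above the highest control. The ratio of the means was 237, the log2 difference was 7.15 ± 0.42 (SE, adjusted p = 5.25e-08), and it was 7.197 ± 0.45 (adjusted p = 4.77e-07) without ethanol library 2. This call held under every alternative that was run. Reads of Cyp2b10 may be shared with its close relatives Cyp2b9 and Cyp2b13. Neither passed the test: Cyp2b9 went from a mean of 239.6 to 168 FPKM (adjusted p = 0.409) and Cyp2b13 from 175 to 90.0 FPKM (adjusted p = 0.404).

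The other targets of CAR and its sister receptor PXR did not follow Cyp2b10 as a group. Of 33 members kept, Cyp2b10 included, 1 was higher, Cyp2b10 itself, and 3 were lower. Leaving out ethanol library 2 gave 5 higher, again with Cyp2b10 among them, and 2 lower. Over all genes 2.58% were higher and 1.59% lower, and 7.23% and 2.25% without ethanol library 2. The 3 lower members were Cyp2c38, Cyp2c39 and Cyp2c54, drug-metabolising P450s of one gene cluster. Cyp2c38 fell from 33.6, 36.9, 67.2 and 64.9 FPKM in the controls to 21.1, 5.11, 21.4 and 14.3 FPKM (log2 difference -1.75 ± 0.37 SE, adjusted p = 0.0151, 7-library fit -1.33, 0.00842, lost without control library 4 at 0.059). Cyp2c39 fell with a log2 difference of -1.68 (adjusted p = 0.0135, 7-library fit -1.34, 0.0113, lost without control library 2 at 0.0531). Cyp2c54 had a difference of -2.58 (adjusted p = 0.0489, 7-library fit -2.04, 0.0742, lost without control library 1, 2, 3 or 4 or ethanol library 2, 3 or 4 at 0.0742 to 0.123). Further members of that cluster were among the 15 largest falls of the genes named by rule, which passed over predicted genes. Cyp2c69 stood at 543, 539, 238 and 253 FPKM in the controls and 196, 30.8, 19.3 and 6.92 FPKM under ethanol. The difference was -3.53 ± 0.87 (SE, adjusted p = 0.0313, 7-library fit -3.53, 0.0333), and the call was lost without control library 1, 2 or 4 or ethanol library 3 or 4 (adjusted p 0.0635 to 0.0925). Cyp2c40 (-2.91, adjusted p = 0.0193, 7-library fit -2.69, 0.0253, lost without control library 1, 2 or 4 or ethanol library 4 at 0.056 to 0.0635) and Cyp2c67 (-2.51, adjusted p = 0.00864, 7-library fit -2.02, 0.00576, held without each library in turn) fell as well. These genes are near-identical in sequence, and how the authors assigned shared reads is not given in the sources used here. Members higher only without ethanol library 2 were Akr1b7, Ugt1a9, Abcc3 and Cyp2c55. Abcc3, an export pump for conjugates, went from 26.2 to 39.7 FPKM in the controls to 54.1 to 95.8 FPKM in ethanol libraries 1, 3 and 4 and stood at 11.2 FPKM in ethanol library 2. Nr1i3, which encodes CAR itself, differed by -1.37 (adjusted p = 0.167, 7-library fit -0.72, 0.261).

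**Figure D3:**
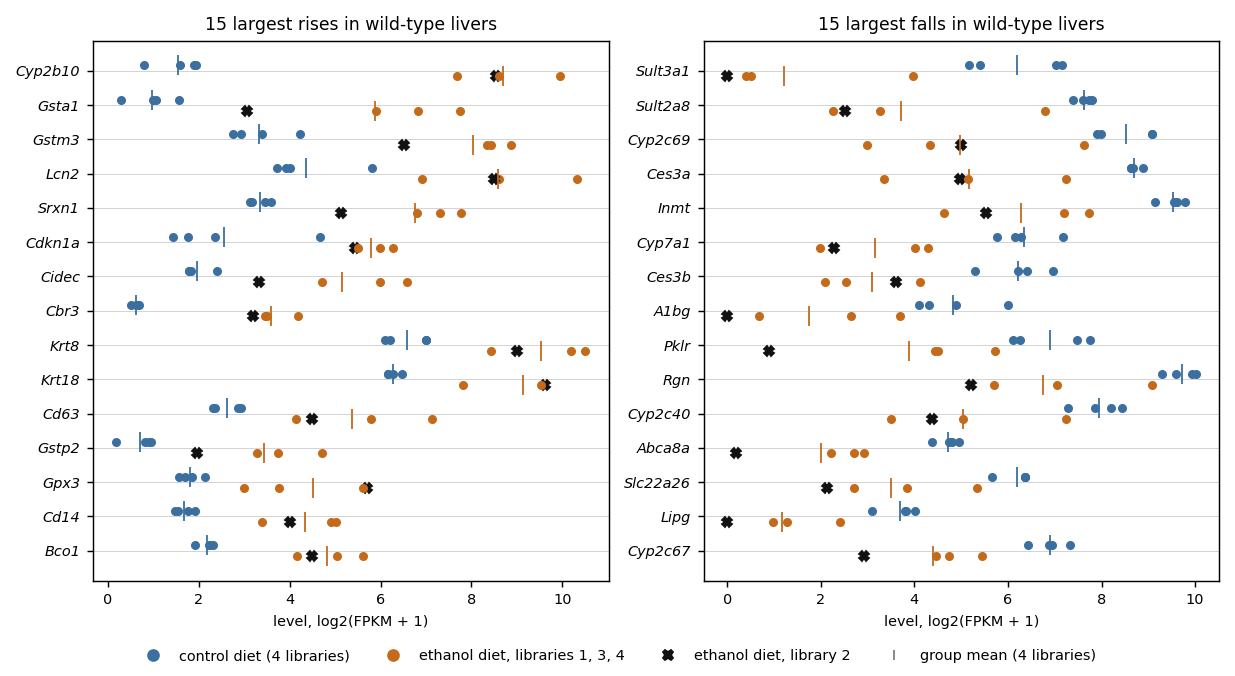
Level of the 15 genes with the largest rise (left) and the 15 with the largest fall (right) in each wild-type library, on a log2(FPKM + 1) axis, with blue points for control libraries, orange points for ethanol libraries 1, 3 and 4, black crosses for ethanol library 2 and vertical ticks for group means. In each of the 30 genes the control and ethanol libraries do not overlap, which was part of the rule that chose them, and the cross falls on the ethanol side.

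Glutathione S-transferases join glutathione to reactive compounds, and several rose. Of 22 members kept, 9 were higher and none lower, and without ethanol library 2, 10 were higher, beside 2.58% and 7.23% of all genes. The median log2 difference of the members was 0.96, against -0.02 over all genes. Gsta1 stood at 1.08, 1.96, 0.985 and 0.219 FPKM in the controls and at 112, 7.40, 58.6 and 214.5 FPKM under ethanol. Ethanol library 2 was the lowest of the ethanol libraries and still above every control. The difference was 4.91 ± 1.01 (SE, adjusted p = 0.0136, 7-library fit 5.85, 0.00295), and the call was lost without control library 4 (adjusted p = 0.0503). Gstm3 rose from 5.76, 17.7, 6.64 and 9.48 to 325, 90.7, 344 and 467 FPKM, with a difference of 4.72 ± 0.61 (SE, adjusted p = 0.00118, 7-library fit 5.22, 6.70e-04), and the call held without each of the 8 libraries in turn. The abundant Gstm1 rose from a mean of 453 ± 156 to 1632 ± 495 FPKM (SD, n = 4, limma adjusted p = 0.0209, lost without control library 1, 2 or 4 or ethanol library 4 at 0.0503 to 0.0785). Gstp1 rose from 157 ± 61.7 to 777 ± 399.6 FPKM (SD, n = 4, limma adjusted p = 0.0267, lost without control library 1, 2 or 4 or ethanol library 3 or 4 at 0.0595 to 0.0925). Gstp2, Gsta2, Gstt3, Gstm2 and Gsta4 were the other members called, with differences from 1.20 (lost without control library 1, 2, 3 or 4 or ethanol library 3 or 4 at 0.0528 to 0.159) to 2.72 (lost without control library 1, 2 or 4 or ethanol library 4 at 0.0597 to 0.0785). Of the other 3, Gsta2 and Gstt3 held without each library in turn and Gstm2 was lost without control library 1, 2, 3 or 4 or ethanol library 3 or 4 at 0.0627 to 0.139. Gsta3 (-1.06, adjusted p = 0.0635, 7-library fit -0.92, 0.0563) and Mgst1 (-1.45, adjusted p = 0.211, 7-library fit -0.51, 0.26), the 2 members with the highest FPKM in control liver, did not pass the test. The Gsta and Gstp pairs are close copies whose reads may be split between them.

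NRF2 is the transcription factor that switches on antioxidant genes under oxidative stress. Of 27 target genes kept, 4 were higher, 9 without ethanol library 2, and none lower in either. Over all genes 2.58% were higher, and 7.23% without ethanol library 2. Srxn1, sulfiredoxin, which repairs overoxidised peroxiredoxins, rose from 9.98, 10.9, 7.78 and 8.05 FPKM to 218.9, 34.2, 110.4 and 157 FPKM (log2 difference 3.42 ± 0.67 SE, adjusted p = 0.0109, 7-library fit 3.96, 0.00295, held without each library in turn). Cbr3, a carbonyl reductase, rose from 0.583, 0.609, 0.421 and 0.533 to 10.01, 8.21, 10.3 and 17.2 FPKM (log2 difference 2.97 ± 0.55 SE, adjusted p = 0.00864, 7-library fit 3.10, 0.0076, held without each library in turn). Its controls all lay below the filter level of 1 FPKM, so Cbr3 was kept through other libraries. Hmox1, heme oxygenase, rose from a mean of 10.3 ± 1.41 to 37.5 ± 7.39 FPKM (SD, n = 4), a difference of 1.76 ± 0.40 (SE, adjusted p = 0.0213, 7-library fit 1.82, 0.0156), and the call was lost without control library 1, 2 or 4 or ethanol library 4 (adjusted p 0.0519 to 0.0703). The fourth was the efflux pump gene Abcc4 (log2 difference 1.63 ± 0.43 SE, adjusted p = 0.0417, 7-library fit 2.06, 0.00528, lost without control library 1, 2, 3 or 4 or ethanol library 3 or 4 at 0.0803 to 0.121). Nqo1, a classical marker of the pathway, stood at 6.48, 7.56, 4.15 and 4.11 FPKM in the controls and 24.0, 4.95, 15.5 and 15.8 FPKM under ethanol. It passed the test only without ethanol library 2, at 1.57 ± 0.40 (adjusted p = 0.0244). The genes for glutathione synthesis did not pass it: Gclc differed by -0.35 (adjusted p = 0.806, 7-library fit 0.51, 0.494) and Gclm by -1.13 (adjusted p = 0.119, 7-library fit -0.59, 0.0743). Nfe2l2, which encodes NRF2, stood at 18.7, 22.9, 22.6 and 29.3 FPKM in the controls and 17.5, 2.04, 28.0 and 36.4 FPKM under ethanol (adjusted p = 0.55).

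The antioxidant response element was searched in the promoters of these genes as TGACNNNGC, on both strands, in the 250 bases before each gene start of the RefSeq table for GRCm38.p6. Its first letters also begin the AP-1 motif. It was found for 7 of 24 members with a promoter in the table (29.2%) and for 11.5% of 27025 genes. Of these 7 members 1 was called, Abcc4, and its 2 promoters in the table are shown because it rose, with the motif in capitals.
Abcc4, chr14:118706220-118706260, minus strand: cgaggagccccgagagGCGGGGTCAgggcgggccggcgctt
Abcc4, chr14:118676932-118676970, minus strand: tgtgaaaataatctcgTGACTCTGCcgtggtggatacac
The match is of letters only and says nothing on binding.

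Carboxylesterases hydrolyse ester drugs and stored lipid in hepatocytes, and most of the list fell. Of 12 members kept, 7 were lower and none higher, and without ethanol library 2, 8 were lower. Ces3a, also known as a triacylglycerol hydrolase of the liver, stood at 394, 394, 405 and 473 FPKM in the controls and 149.9, 30.5, 34.2 and 9.26 FPKM under ethanol. Every ethanol library was below every control. The difference was -3.52 ± 0.62 (SE, adjusted p = 0.00605, 7-library fit -3.46, 0.00756), and the call held without each of the 8 libraries in turn. Ces3b fell from 72.8, 84.3, 38.4 and 124 to 16.5, 11.2, 3.24 and 4.82 FPKM (log2 difference -3.13 ± 0.49 SE, adjusted p = 0.00421, 7-library fit -3.30, 0.00268, held without each library in turn). Ces1d, which hydrolyses triglyceride before lipoprotein assembly, fell from a mean of 814 ± 193 to 179 ± 98.9 FPKM (SD, n = 4, limma adjusted p = 0.00572, held without each library in turn). The other members called were Ces1c (lost without control library 1, 2, 3 or 4 or ethanol library 3 or 4 at 0.069 to 0.136), Ces1g (lost without control library 1, 2 or 3 or ethanol library 3 or 4 at 0.0828 to 0.115), Ces1f (lost without control library 1 or 2 or ethanol library 4 at 0.0617 to 0.0691) and Ces1b (lost without control library 1, 2, 3 or 4 or ethanol library 3 or 4 at 0.0683 to 0.0915). Ces1e passed only without ethanol library 2 (-1.61 ± 0.34 SE, adjusted p = 0.0108). The 4 Ces2 members were not called, with differences from -0.76 to 0.23. Members of the Ces1 and Ces3 clusters are tandem copies, so their reads may be shared.

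Sulfotransferases add sulfate to steroids, bile acids and drugs. Of 17 genes kept, 4 fell and 1 rose, and without ethanol library 2, 4 fell and 2 rose. Sult3a1 had the largest fall of the genes named by rule. It lies at chr10:33857721-33879532 of GRCm38, and stood at 129.5, 141.6, 41.4 and 34.9 FPKM in the controls and 14.7, 0, 0.315 and 0.431 FPKM under ethanol. Ethanol library 1 was the highest of its group, and ethanol library 2 was listed at 0. The ratio of the means, control over ethanol, was 22.5. The difference was -4.97 ± 1.25 (SE, adjusted p = 0.0344, 7-library fit -4.56, 0.0498), and the call was lost without control library 1, 2, 3 or 4 or ethanol library 3 or 4 (adjusted p 0.0532 to 0.104). Sult2a8, a bile acid sulfotransferase, fell from 211, 222, 168 and 195 to 109.9, 4.77, 8.67 and 3.77 FPKM (log2 difference -3.92 ± 0.69 SE, adjusted p = 0.00644, 7-library fit -3.53, 0.00894, held without each library in turn). Sult2a7 and Sult1b1 also fell, with differences of -3.41 (adjusted p = 0.0213, 7-library fit -3.08, 0.0323, lost without control library 1, 2 or 4 or ethanol library 3 or 4 at 0.0508 to 0.0785) and -1.60 (adjusted p = 0.0146, 7-library fit -1.45, 0.0165, lost without control library 1 or 2 at 0.0542 to 0.0593). In the other direction, the oestrogen sulfotransferase Sult1e1 rose from 3.62, 2.66, 1.498 and 0.114 to 31.4, 13.6, 4.48 and 15.7 FPKM (log2 difference 2.46 ± 0.57 SE, adjusted p = 0.0235, 7-library fit 2.45, 0.0253, lost without control library 2, 3 or 4 or ethanol library 4 at 0.0504 to 0.0891). The Sult2a genes are close copies of one another.

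Enzymes of ethanol breakdown fell or did not pass the test. Of 13 genes kept, 3 were lower and none higher, and without ethanol library 2, 4 were lower. Adh4, an alcohol dehydrogenase, stood at 115, 55.5, 52.2 and 77.6 FPKM in the controls and 14.98, 11.5, 18.8 and 16.2 FPKM under ethanol. No ethanol library reached the lowest control. The difference was -2.16 ± 0.29 (SE, adjusted p = 0.00118, 7-library fit -2.04, 0.00115), and the call held without each of the 8 libraries in turn. Cyp2e1, the ethanol-oxidising P450 whose protein is known to be stabilised by ethanol, fell at the mRNA level from 2142, 2282, 4164 and 4468 to 941, 1275, 1057 and 833 FPKM. The difference was -1.61 ± 0.38 (SE, adjusted p = 0.0241, 7-library fit -1.72, 0.0143), and the call was lost without control library 3 or 4 or ethanol library 4 (adjusted p 0.063 to 0.0903). Adh7 fell with a difference of -1.31 (adjusted p = 0.0187, 7-library fit -1.14, 0.0192, lost without control library 1 or 4 at 0.0537 to 0.073). Adh1, the main alcohol dehydrogenase of liver, went from a mean of 1209 ± 128 to 969.8 ± 258 FPKM (SD, n = 4, limma adjusted p = 0.459). Aldh2, the mitochondrial acetaldehyde dehydrogenase, went from 496 ± 210.2 to 313 ± 171 FPKM (SD, n = 4, limma adjusted p = 0.416), with 95.02 FPKM in ethanol library 2 (adjusted p = 0.712 without it). The catalase gene Cat passed the test in neither fit.

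Genes of hepatocytes around the central vein were lower in 4 of 17 members and higher in none, and lower in 6 without ethanol library 2. Cyp2e1 belongs to this list too. Glul, glutamine synthetase, stood at 344, 314, 449.8 and 532 FPKM in the controls and 50.3, 92.5, 149.1 and 173 FPKM under ethanol. The difference was -1.93 ± 0.45 (SE, adjusted p = 0.0235, 7-library fit -1.87, 0.0236), and the call was lost without control library 1, 2, 3 or 4 (adjusted p 0.0531 to 0.0823). Rgn, regucalcin, fell from 976, 1036, 630.1 and 769 to 539, 35.9, 131 and 51.2 FPKM (log2 difference -2.95 ± 0.60 SE, adjusted p = 0.0135, 7-library fit -2.43, 0.0155, held without each library in turn), and Gulo, the last enzyme of vitamin C synthesis in mice, fell with a difference of -1.48 (adjusted p = 0.029, 7-library fit -1.06, 0.0126, lost without control library 1, 2 or 4 at 0.0624 to 0.103). Lgr5 was among those added without ethanol library 2. The Wnt target Axin2 differed by -0.66 (adjusted p = 0.209, 7-library fit -0.59, 0.229), and Cyp1a2 by -0.41 (adjusted p = 0.697, 7-library fit 0.14, 0.857). Of 15 genes of hepatocytes around the portal vein, none was called by limma with all libraries or by voom. An unadjusted p under 0.05 was seen for 2, beside 2225 of all 11298 genes. Hsd17b13 was called higher without ethanol library 2, where 8 of the 15 had an unadjusted p under 0.05. The median difference was -0.30, and 0.59 without ethanol library 2. Cps1 of the urea cycle stood at 36.5 FPKM in ethanol library 2, at 803 to 869.9 FPKM in the other 3 ethanol libraries and at 339 to 736 FPKM in the controls. Its difference was -0.30 (adjusted p = 0.849, 7-library fit 0.81, 0.0602).

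Genes of cholesterol synthesis fell in part. Of 24 genes kept, 6 were lower and none higher, and without ethanol library 2, 8 were lower. The median difference was -1.19, and -1.22 without ethanol library 2. Hmgcs1, the synthase early in the pathway, stood at 178, 96.4, 64.5 and 91.2 FPKM in the controls and 34.9, 13.3, 28.3 and 27.0 FPKM under ethanol. The 2 groups did not overlap. The difference was -1.99 ± 0.45 (SE, adjusted p = 0.0207, 7-library fit -1.71, 0.0249), and the call was lost without control library 1, 2 or 4 (adjusted p 0.0563 to 0.0771). Idi1, an isomerase of the pathway, fell with a difference of -2.52 (adjusted p = 0.0241, 7-library fit -1.95, 0.0311, lost without control library 1, 2 or 4 or ethanol library 4 at 0.0601 to 0.0864) and Nsdhl with -1.98 (adjusted p = 0.0207, 7-library fit -1.67, 0.0266, lost without control library 1, 2 or 4 or ethanol library 4 at 0.0528 to 0.0754). The sterol carrier Stard4 fell with a difference of -1.77 (adjusted p = 0.0137, 7-library fit -1.36, 0.00756, lost without control library 1 or 2 at 0.0512 to 0.0525) and Insig1, which holds the sterol sensor in the endoplasmic reticulum, with -2.24 (adjusted p = 0.026, 7-library fit -1.86, 0.036, lost without control library 1, 2 or 4 or ethanol library 4 at 0.0623 to 0.085). Fdft1 and Fdps passed only without ethanol library 2, in which Fdps stood at 218 FPKM, within the control range of 105 to 345 FPKM. None of the 6 calls held without each library in turn. Srebf2, the transcription factor of the pathway, differed by -0.59 (adjusted p = 0.361, 7-library fit -0.27, 0.591). A sterol response element, searched as TCACNCCAC on both strands, was found in 1 of 16 member promoters with an entry (6.25%) and in 1.22% of 27025 genes. It was that of Hmgcs1, shown here with the motif in capitals because the gene fell.
Hmgcs1, chr13:119690198-119690238, plus strand: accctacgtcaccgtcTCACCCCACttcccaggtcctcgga

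Fatty acid synthesis genes pointed the same way with fewer calls. Of 16 kept, 3 were lower and none higher, and 4 were lower without ethanol library 2. Of the 3, Srebf1 and Mlxipl encode transcription factors and Mid1ip1 an activator of acetyl-CoA carboxylase. With other scaling the lower calls were 6 after quantile normalization, 1 with equal sums and 5 with median of ratios. Srebf1, which drives fatty acid synthesis genes, stood at 45.1, 114, 40.04 and 85.4 FPKM in the controls and 8.10, 5.22, 29.0 and 19.3 FPKM under ethanol. The difference was -2.27 ± 0.46 (SE, adjusted p = 0.0133, 7-library fit -1.90, 0.0132), and the call was lost without control library 2 (adjusted p = 0.053). Mlxipl, the carbohydrate-responsive factor ChREBP, fell from 57.4, 68.2, 86.7 and 171 to 19.1, 9.45, 27.9 and 41.5 FPKM (log2 difference -1.97 ± 0.48 SE, adjusted p = 0.0279, 7-library fit -1.60, 0.036, lost without control library 2, 3 or 4 at 0.0565 to 0.104), and Mid1ip1 fell with a difference of -1.75 (adjusted p = 0.0328, 7-library fit -1.36, 0.0406, lost without control library 1, 2 or 4 or ethanol library 4 at 0.0534 to 0.117). The enzymes themselves spread widely between control libraries. Fasn, fatty acid synthase, stood at 42.3, 208, 25.6 and 162 FPKM in the controls and 13.5, 40.2, 28.7 and 17.0 FPKM under ethanol (log2 difference -1.74 ± 0.61 SE, adjusted p = 0.12, 7-library fit -2.001, 0.0622). Scd1 stood at 404, 1283, 389 and 1191 and 396, 36.8, 222 and 83.4 FPKM (log2 difference -2.43 ± 0.71 SE, adjusted p = 0.0643, 7-library fit -1.84, 0.101). Neither passed the test, and for both the groups overlapped. Thrsp passed without ethanol library 2 (-3.00 ± 0.87 SE, adjusted p = 0.042). Pklr, liver pyruvate kinase, a target of ChREBP, fell from 75.5, 213, 67.6 and 176 to 21.6, 0.871, 52.0 and 20.6 FPKM (log2 difference -3.00 ± 0.74 SE, adjusted p = 0.0302, 7-library fit -2.01, 0.0158), and the call was lost without control library 1, 2 or 4 or ethanol library 4 (adjusted p 0.0532 to 0.0993).

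Genes of fat storage and uptake rose in part. Of 25 kept, 4 were higher and 1 lower, and without ethanol library 2, 8 were higher and 1 lower. Over all genes 2.58% were higher and 1.59% lower, and 7.23% and 2.25% without ethanol library 2. Cidec, a lipid droplet protein that promotes droplet fusion, stood at 2.44, 2.56, 2.43 and 4.30 FPKM in the controls and 62.8, 8.99, 25.2 and 95.1 FPKM under ethanol. The difference was 3.20 ± 0.73 (SE, adjusted p = 0.0213, 7-library fit 3.81, 0.00576), and the call was lost without control library 1, 2 or 4 or ethanol library 4 (adjusted p 0.0519 to 0.0649). Fabp4, a fatty acid binding protein, rose by 1.98 (adjusted p = 0.0267, 7-library fit 2.33, 0.00785, lost without control library 1, 2, 3 or 4 or ethanol library 4 at 0.0529 to 0.0971). Lpl and Vldlr, proteins of lipoprotein uptake, rose by 1.94 (adjusted p = 0.0481, 7-library fit 2.04, 0.0385, lost without control library 1, 2, 3 or 4 or ethanol library 3 or 4 at 0.0874 to 0.132) and 0.999 (adjusted p = 0.0429, 7-library fit 1.30, 0.00268, lost without control library 1, 2, 3 or 4 or ethanol library 1, 3 or 4 at 0.0541 to 0.13). Plin2, the main coat protein of hepatocyte droplets, stood at 254, 257, 275 and 146 FPKM in the controls and 697, 115, 449.9 and 443 FPKM under ethanol. It did not pass the test in either fit (0.65, adjusted p = 0.538, 7-library fit 1.19, 0.112). Hilpda, Pnpla2, Plin3 and Hsd17b13 passed only without ethanol library 2. The member that fell was Fabp1, the fatty acid binding protein of hepatocytes, from 10114, 7802, 4961 and 6894 to 3376, 3109, 2165 and 1557 FPKM (log2 difference -1.56 ± 0.37 SE, adjusted p = 0.0258, 7-library fit -1.68, 0.0155, lost without control library 1, 2 or 4 or ethanol library 3 or 4 at 0.0523 to 0.0925). Dgat2, the main enzyme of triglyceride synthesis, went from 315 to 301 FPKM without ethanol library 2 (difference -0.04, adjusted p = 0.904). Of 30 genes of fatty acid oxidation, 1 fell with all libraries, Acaa1b (-2.06, adjusted p = 0.0338, 7-library fit -1.33, 0.00943, lost without control library 1, 2, 3 or 4 at 0.0636 to 0.0882), and none rose. Leaving out ethanol library 2 gave 2 lower and 1 higher, and a median difference of 0.01 in place of -0.68. With all libraries the lower calls were 0 with equal sums and 6 with median-of-ratios scaling. Quantile normalization gave 3 lower and 1 higher. Cpt1a stood at 11.6 FPKM in ethanol library 2 and at 42.5 to 152 FPKM in the other ethanol libraries, against 70.1 to 124 FPKM in the controls.

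Cyp7a1, the rate-limiting enzyme of bile acid synthesis, stood at 143.7, 76.9, 53.2 and 70.1 FPKM in the controls and 2.98, 3.90, 15.3 and 18.6 FPKM under ethanol. Every ethanol library was below every control. The difference was -3.19 ± 0.66 (SE, adjusted p = 0.0139, 7-library fit -2.91, 0.02), and the call was lost without control library 1 (adjusted p = 0.0534). Cyp8b1, which sets the share of cholic acid, fell from 97.1, 165, 171 and 108 to 35.3, 46.3, 38.2 and 17.1 FPKM (log2 difference -1.99 ± 0.44 SE, adjusted p = 0.0193, 7-library fit -2.16, 0.0104, lost without control library 2 or 3 or ethanol library 4 at 0.0504 to 0.0636). These were the 2 members called of 23, and none rose. Without ethanol library 2, 5 were lower and 1 higher. Among them was the uptake transporter Slco1b2, which went from 529, 467, 318 and 349 to 171, 4.65, 140.4 and 112 FPKM, with ethanol library 2 the lowest (-1.54 ± 0.28 SE, adjusted p = 0.00491 without it). Cyp39a1 was the member higher without ethanol library 2 (0.99, adjusted p = 0.0388). The bile salt export pump Abcb11 differed by -0.52 (adjusted p = 0.382, 7-library fit -0.14, 0.663) and the bile acid receptor gene Nr1h4 by -1.09 (adjusted p = 0.251, 7-library fit -0.35, 0.384). Among apolipoproteins none of 18 was called by limma with all libraries or by voom. An unadjusted p under 0.05 was seen for 4, beside 2225 of all 11298 genes. Apoa4, made in steatotic liver, stood at 78.1, 120.2, 66.3 and 84.2 FPKM in the controls and 513, 47.6, 1123 and 2718 FPKM under ethanol. Without ethanol library 2, which lay below the control range, it had the largest rise of the genes that only then passed (3.75 ± 0.57 SE, adjusted p = 0.00247).

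The integrated stress response is the programme by which phosphorylated eIF2 raises translation of ATF4, which then switches on amino acid synthesis and stress genes. Of 23 genes kept, 7 were higher and none lower, and without ethanol library 2, 10 were higher. The median difference was 1.36 with all libraries and 1.27 without ethanol library 2, the highest median of the lists. ATF4 binds the C/EBP-ATF response element. This was searched as TGATGNAA on both strands in the 250 bases before the gene start and was found for 6 of 21 members with a promoter in the RefSeq table for GRCm38.p6 (28.6%), and for 3.91% of 27025 genes. The 6 are shown with the motif in capitals, read along each gene's own strand, because they show which members of the list hold it and which of these moved.
Nupr1, chr7:126625557-126625596, minus strand: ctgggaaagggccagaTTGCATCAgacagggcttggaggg
Fgf21, chr7:45615606-45615645, minus strand: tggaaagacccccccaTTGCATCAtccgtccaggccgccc
Asns, chr6:7693210-7693248, minus strand: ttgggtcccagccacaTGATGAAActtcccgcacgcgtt
Aars, chr8:111033714-111033753, plus strand: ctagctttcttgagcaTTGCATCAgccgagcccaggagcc
Chac1, chr2:119351033-119351072, plus strand: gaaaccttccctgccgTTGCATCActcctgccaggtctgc
Pck2, chr14:55540147-55540186, plus strand: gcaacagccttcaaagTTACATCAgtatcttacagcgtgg
Of these 6 only Nupr1 was called, with all libraries and without ethanol library 2. Nupr1, a stress-induced chromatin protein, stood at 0.514, 0.633, 1.64 and 0.431 FPKM in the controls and 4.47, 6.81, 6.04 and 4.71 FPKM under ethanol. The difference was 1.88 ± 0.28 (SE, adjusted p = 0.00365, 7-library fit 1.79, 0.00318), and the call held without each of the 8 libraries in turn. Asns, asparagine synthetase, stood at 0.182, 0.312, 0.794 and 0.190 and 1.84, 6.32, 4.64 and 11.7 FPKM. All 4 ethanol libraries were above every control, but the difference of 2.20 ± 0.64 (SE, adjusted p = 0.0629, 7-library fit 2.12, 0.0737) did not pass. Chac1, which breaks down glutathione, differed by -0.60 (adjusted p = 0.637, 7-library fit -0.31, 0.806) and Aars by -0.18 (adjusted p = 0.749, 7-library fit 0.03, 0.936).

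The members called without that motif in the window were led by the serine synthesis genes and by 2 transcriptional regulators. Psat1, of serine synthesis, stood at 0.301, 0.336, 1.07 and 0.128 FPKM in the controls and 3.004, 4.98, 9.504 and 16.1 FPKM under ethanol. The difference was 2.51 ± 0.59 (SE, adjusted p = 0.0237, 7-library fit 2.66, 0.0203), and the call was lost without control library 1, 2 or 4 or ethanol library 3 or 4 (adjusted p 0.0508 to 0.0792). Phgdh and Psph of the same pathway rose by 1.36 (adjusted p = 0.034, 7-library fit 0.92, 0.0241, lost without control library 1, 2, 3 or 4 or ethanol library 4 at 0.0609 to 0.092) and 1.48 (adjusted p = 0.0354, 7-library fit 1.76, 0.00923, lost without control library 1, 2, 3 or 4 or ethanol library 3 or 4 at 0.0595 to 0.104). Ddit3, the factor CHOP, rose from 8.12, 5.75, 8.43 and 8.52 to 23.4, 38.2, 18.0 and 18.2 FPKM (log2 difference 1.49 ± 0.31 SE, adjusted p = 0.0137, 7-library fit 1.27, 0.0117, lost without control library 2 at 0.0561), and Trib3, its target and an inhibitor of AKT, from 1.24, 1.84, 3.02 and 3.60 to 7.96, 5.09, 19.8 and 34.4 FPKM (log2 difference 2.10 ± 0.51 SE, adjusted p = 0.0284, 7-library fit 2.51, 0.00759, lost without control library 1, 2 or 4 or ethanol library 3 or 4 at 0.0563 to 0.0954). The seventh was Sars (1.37, adjusted p = 0.0473, 7-library fit 0.99, 0.0468, lost without control library 1, 2, 3 or 4 or ethanol library 3 or 4 at 0.0532 to 0.152). Gdf15, a stress hormone, stood at 2.85, 1.52, 11.3 and 7.14 and 61.9, 8.83, 35.6 and 18.5 FPKM and passed without ethanol library 2 (2.67 ± 0.69 SE, adjusted p = 0.0262), as did Ddit4 and Atf4. None of 24 genes of the unfolded protein response in the endoplasmic reticulum was called by limma with all libraries or by voom, and 1 had an unadjusted p under 0.05. The chaperone gene Hspa5 differed by -0.30 (adjusted p = 0.782, 7-library fit 0.42, 0.318), and Atf6 was called higher without ethanol library 2. None of 18 heat shock genes was called by limma in either fit or by voom, and 2 had an unadjusted p under 0.05 (3 without ethanol library 2). Quantile normalization called 1 of them higher with all libraries, and a term for the title number 1 without ethanol library 2. The largest of their differences was that of Hspb1, a small heat shock protein, from 8.91, 6.31, 33.9 and 17.3 to 23.8, 49.8, 37.6 and 79.8 FPKM (log2 difference 1.60 ± 0.48 SE, adjusted p = 0.0682, 7-library fit 1.54, 0.0712).

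**Figure D4:**
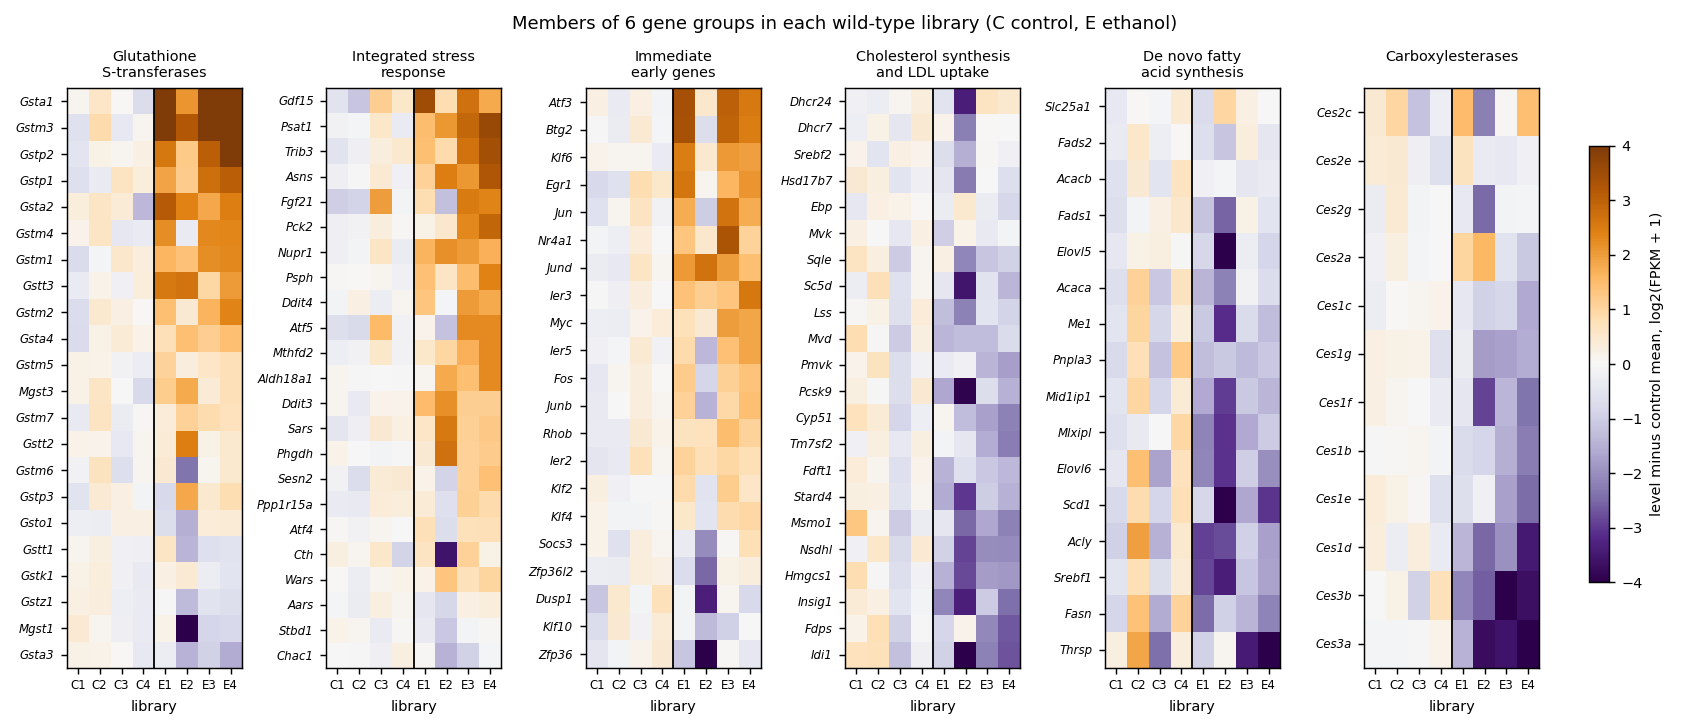
Members of 6 gene groups (rows, with 2 cholesterol genes left out) in each wild-type library (columns, C1 to C4 control, E1 to E4 ethanol), coloured by level minus the control mean in log2(FPKM + 1), orange for higher and purple for lower, with the scale cut at 4. Most glutathione S-transferases and stress response genes are orange in E1, E3 and E4, and cholesterol synthesis genes and carboxylesterases are mostly purple. Column E2 departs from the other ethanol columns in genes such as Mgst1, Cth and Thrsp. Over all 11298 genes, library 2 lay outside the range of the other 7 wild-type libraries for 73.35%.

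Immediate early genes, which respond within minutes to many signals and of which many encode transcription factors, were called in 4 of 21 members, all higher, and in 13 without ethanol library 2. Over all genes 2.58% were higher, and 7.23% without ethanol library 2. For 6 of the 9 added genes ethanol library 2 lay within or below the control range, and for Ier3, Myc and Rhob above it. Jund rose from 10.6, 10.01, 20.9 and 14.3 to 59.0, 90.4, 56.2 and 38.6 FPKM (log2 difference 2.04 ± 0.32 SE, adjusted p = 0.00439, 7-library fit 1.84, 0.00308), and the call held without each of the 8 libraries in turn. Atf3 stood at 0.952, 0.317, 0.972 and 0.532 FPKM in the controls and 16.3, 1.38, 12.5 and 8.83 FPKM under ethanol. Its controls all lay below the filter level of 1 FPKM, so Atf3 was kept through other libraries. The difference was 2.36 ± 0.51 (SE, adjusted p = 0.0174, 7-library fit 2.98, 0.00113), and the call was lost without control library 2 or 4 (adjusted p 0.0563 to 0.0603). Klf6 and Nr4a1 rose by 1.74 (adjusted p = 0.023, 7-library fit 2.16, 0.00268, lost without control library 1, 2 or 4 or ethanol library 3 or 4 at 0.0506 to 0.0814) and 1.55 (adjusted p = 0.048, 7-library fit 1.89, 0.011, lost without control library 1, 2, 3 or 4 or ethanol library 3 or 4 at 0.0519 to 0.132). Jun stood at 2.42, 4.38, 7.07 and 3.66 and 16.4, 1.52, 30.7 and 16.4 FPKM and passed only without ethanol library 2 (2.05 ± 0.40 SE, adjusted p = 0.00776), and so did Btg2, Egr1, Ier3, Myc, Ier5, Rhob, Klf2 and Klf4. Fos differed by 1.21 there (adjusted p = 0.0551). Of 14 genes of growth arrest and p53, 2 rose, and 5 without ethanol library 2, beside 2.58% and 7.23% of all genes. Cdkn1a, the cell cycle inhibitor p21, stood at 4.09, 1.71, 24.5 and 2.41 FPKM in the controls and 76.4, 42.2, 44.3 and 62.2 FPKM under ethanol. Control library 3 was the highest control and lay below the lowest ethanol library. The difference was 3.24 ± 0.63 (SE, adjusted p = 0.0107, 7-library fit 3.36, 0.00943), and the call held without each of the 8 libraries in turn. Phlda3 rose by 1.92 (adjusted p = 0.00877, 7-library fit 1.92, 0.00923, held without each library in turn). Gadd45b differed by 1.06 (adjusted p = 0.281, 7-library fit 1.25, 0.176).

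Lcn2, lipocalin 2, an iron-siderophore binder made by injured hepatocytes, lies at chr2:32384633-32388252 of GRCm38. It stood at 14.96, 12.3, 55.3 and 14.2 FPKM in the controls and 389.6, 362, 119 and 1282 FPKM under ethanol. The difference was 4.22 ± 0.69 (SE, adjusted p = 0.00478, 7-library fit 4.25, 0.00497), and the call held without each of the 8 libraries in turn. Cd14, the co-receptor for bacterial lipopolysaccharide, rose from 1.77, 2.75, 2.38 and 1.92 to 29.2, 15.2, 9.56 and 31.4 FPKM. The difference was 2.67 ± 0.63 (SE, adjusted p = 0.0253, 7-library fit 2.78, 0.0229), and the call was lost without control library 1, 2, 3 or 4 or ethanol library 4 (adjusted p 0.0504 to 0.0758). These were the 2 members called of 22 acute phase genes, in either fit, beside 2.58% and 7.23% of all genes called higher. Saa1 and Saa2, the classical acute phase serum amyloids, differed by 0.40 and 0.22 (adjusted p = 0.848 and 0.918), and Hp, haptoglobin, by 0.91 (adjusted p = 0.121, 7-library fit 0.64, 0.159). None of 13 cytokine and chemokine genes kept was called by limma in either fit or by voom, 1 had an unadjusted p under 0.05 (4 without ethanol library 2), and 7 more lay below the filter. A term for the title number called 1 higher without ethanol library 2. Ccl2, a monocyte chemokine, stood at 0.526, 0.612, 0.300 and 0.175 and 4.36, 3.78, 1.65 and 9.02 FPKM (log2 difference 1.88 ± 0.74 SE, adjusted p = 0.167, 7-library fit 1.91, 0.158). Of 24 interferon-stimulated genes none was called by limma with all libraries or by voom, and 1 had an unadjusted p under 0.05. Quantile normalization called 1 higher with all libraries. Without ethanol library 2, Rsad2, Oasl1 and Usp18 were higher.

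Among cell type markers the calls were few. Over all genes 2.58% were higher and 1.59% lower, and 7.23% and 2.25% without ethanol library 2. Marco, a scavenger receptor of macrophages, was 1 of 12 Kupffer cell markers called, with 12.8, 7.45, 6.74 and 5.73 FPKM in the controls and 21.1, 18.0, 31.6 and 49.6 FPKM under ethanol. The difference was 1.71 ± 0.44 (SE, adjusted p = 0.0379, 7-library fit 1.91, 0.0185), and the call was lost without control library 1, 2, 3 or 4 or ethanol library 3 or 4 (adjusted p 0.0534 to 0.117). Cd68 passed without ethanol library 2 (1.47 ± 0.41 SE, adjusted p = 0.0375), while the Kupffer cell genes Clec4f, Timd4 and Adgre1 differed by 0.44, -0.03 and 0.06 there (adjusted p = 0.628, 0.957 and 0.953). With all libraries these differences were 0.27, -0.17 and -0.15. The difference was positive for 8 of the 12 markers, with a median of 0.30, and for 11 without ethanol library 2, with a median of 0.51. The summed level of the 12 markers ran from 239 to 650.3 FPKM in the controls and from 425 to 795 FPKM under ethanol, and control libraries 3 and 4 were the 2 lowest. Neutrophil and monocyte markers summed to 2.02 to 7.92 FPKM in the controls and 5.26 to 16.01 FPKM under ethanol (exact permutation test, two-sided, p = 0.0571, and 0.114 without ethanol library 2). Lyve1 of sinusoidal endothelium stood at 3.02, 3.89, 2.35 and 2.83 FPKM in the controls and 17.1, 1.36, 18.0 and 38.3 FPKM under ethanol, and passed without ethanol library 2 (2.58 ± 0.39 SE, adjusted p = 0.00244). Of the other endothelial markers, Stab2 differed by -0.39 and Clec4g by -0.94 in that fit (adjusted p = 0.31 and 0.216). Pecam1 stood at 3.29 to 6.36 FPKM in the controls and at 6.48, 3.32, 9.19 and 10.4 FPKM under ethanol. The difference was positive for 3 of the 10 endothelial markers, with a median of -0.52. Without ethanol library 2 it was positive for 5, with a median of -0.13, and 1 was called. Des of stellate cells rose from 0.866, 1.22, 1.45 and 1.14 to 1.58, 5.08, 3.29 and 3.32 FPKM (log2 difference 0.93 ± 0.23 SE, adjusted p = 0.0296, 7-library fit 0.75, 0.0324, lost without control library 1, 2 or 4 or ethanol library 3 or 4 at 0.0561 to 0.0998), 1 of 9 stellate markers. Without ethanol library 2, 2 of the 9 were higher. The difference was positive for 5 of them, with a median of 0.07, and for 8 without ethanol library 2, with a median of 0.53.

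Genes of scarring and matrix turnover were higher in 3 of 14 members, and 4 without ethanol library 2. Over all genes 2.58% were higher, and 7.23% without ethanol library 2. Timp1, an inhibitor of matrix metalloproteinases, stood at 0.238, 0.142, 0.232 and 0.272 FPKM in the controls and 0.582, 5.15, 1.12 and 4.09 FPKM under ethanol. Its controls all lay below the filter level of 1 FPKM, so Timp1 was kept through other libraries. The difference was 1.39 ± 0.33 (SE, adjusted p = 0.0268, 7-library fit 1.08, 0.0376), and the call was lost without control library 1, 2, 3 or 4 or ethanol library 4 (adjusted p 0.0542 to 0.0798). Ccn2 rose by 0.74 (adjusted p = 0.0404, 7-library fit 0.66, 0.0385, lost without control library 1, 2 or 4 or ethanol library 3 or 4 at 0.0644 to 0.15). Col4a1 passed without ethanol library 2 (2.52 ± 0.40 SE, adjusted p = 0.00295). The fibrillar collagens stood higher in some ethanol libraries than in others and did not pass. Col1a1 was at 0.106, 0.134, 1.83 and 0.672 FPKM in the controls and 0.416, 0.546, 7.01 and 12.4 FPKM under ethanol (adjusted p = 0.222, and 0.0689 without ethanol library 2).

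Keratins 8 and 18, the paired filament proteins of hepatocytes that form Mallory-Denk bodies in alcoholic hepatitis, were both among the 15 largest rises. Krt8 stood at 128, 127, 72.6 and 67.6 FPKM in the controls and 1451, 514, 344 and 1169 FPKM under ethanol. The difference was 2.96 ± 0.61 (SE, adjusted p = 0.0135, 7-library fit 3.13, 0.00993), and the call was lost without control library 4 (adjusted p = 0.051). Krt18 rose from 71.0, 87.2, 70.5 and 76.7 to 759, 786, 226 and 739 FPKM (log2 difference 2.87 ± 0.52 SE, adjusted p = 0.00835, 7-library fit 2.71, 0.00923), and the call held without each of the 8 libraries in turn. Krt19 and Krt7, keratins of bile ducts, were at or below 1.26 FPKM in every wild-type library. The other large rises were Gpx3, a secreted glutathione peroxidase (from 2.599, 2.26, 3.42 and 1.96 to 6.996, 50.9, 12.5 and 48.3 FPKM, log2 difference 2.70 ± 0.48 SE, adjusted p = 0.00644, 7-library fit 2.31, 0.00756, held without each library in turn), Cd63, a tetraspanin of late endosomes (2.77, adjusted p = 0.0107, 7-library fit 3.06, 0.00526, held without each library in turn), and Bco1, which cleaves beta-carotene to retinal. Bco1 stood at 2.78, 3.75, 3.70 and 3.94 FPKM in the controls and 31.9, 21.5, 17.0 and 47.9 FPKM under ethanol (log2 difference 2.65 ± 0.40 SE, adjusted p = 0.00365, 7-library fit 2.76, 0.00252), and the call held without each of the 8 libraries in turn. With Dhrs9 (1.41, adjusted p = 0.0333, 7-library fit 1.67, 0.0104, lost without control library 1, 2, 3 or 4 or ethanol library 4 at 0.0504 to 0.0925) it was 1 of 2 retinoid genes called of 19, and 4 were higher and 1 lower without ethanol library 2. Over all genes 2.58% were higher, and 7.23% higher and 2.25% lower without ethanol library 2.

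The other large falls were of varied function. Inmt, an indole N-methyltransferase, stood at 749.8, 886, 562 and 777 FPKM in the controls and 211, 45.5, 146 and 23.8 FPKM under ethanol. The difference was -3.25 ± 0.52 (SE, adjusted p = 0.00446, 7-library fit -3.00, 0.00516), and the call held without each of the 8 libraries in turn. Lipg, endothelial lipase, fell from 12.9, 13.1, 7.59 and 15.2 to 1.44, 0, 4.34 and 0.967 FPKM (log2 difference -2.52 ± 0.41 SE, adjusted p = 0.00446, 7-library fit -2.13, 0.00349), and the call held without each of the 8 libraries in turn. Abca8a, a lipid transporter of the ABC family, fell from 19.8, 25.6, 26.9 and 29.9 to 3.62, 0.144, 6.54 and 5.58 FPKM (log2 difference -2.71 ± 0.47 SE, adjusted p = 0.00604, 7-library fit -2.10, 0.00229, held without each library in turn). Slc22a26, an organic anion transporter, fell with a difference of -2.68 (adjusted p = 0.0207, 7-library fit -2.22, 0.0288), and the call was lost without control library 1 or 4 or ethanol library 4 (adjusted p 0.0615 to 0.0656). A1bg fell with a difference of -3.07 (adjusted p = 0.0453, 7-library fit -2.49, 0.0732, lost without control library 1, 2, 3 or 4 or ethanol library 2 or 4 at 0.0732 to 0.145).

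The labels give no sex. All libraries but ethanol library 2 held Xist at 13.7 FPKM or more, with Y-linked genes summing to at most 0.0580 FPKM. That is the pattern of female tissue. Sult3a1 and A1bg are also known as genes with higher expression in female than in male liver. Of 16 such genes kept, these 2 were lower and Sult1e1 was higher. Of 12 genes with higher expression in male liver, 2 were lower. These were Mup21 (log2 difference -2.37 ± 0.59 SE, adjusted p = 0.0326, 7-library fit -2.11, 0.0477, lost without control library 1, 2, 3 or 4 or ethanol library 3 or 4 at 0.0532 to 0.103) and Mup3, a major urinary protein, which stood at 2083, 2263, 1436 and 3839.8 FPKM in the controls and 1459, 584, 70.5 and 20.5 FPKM under ethanol (log2 difference -3.57 ± 0.96 SE, adjusted p = 0.0459, 7-library fit -4.11, 0.0213, lost without control library 1, 2, 3 or 4 or ethanol library 3 or 4 at 0.067 to 0.13). Mup genes are near-identical, so reads may be shared among them. Ghr, the growth hormone receptor, fell from 109.7, 132, 106 and 121 to 48.5, 15.3, 39.7 and 30.5 FPKM (log2 difference -1.89 ± 0.32 SE, adjusted p = 0.00559, 7-library fit -1.56, 0.00247), and the call held without each of the 8 libraries in turn. It was the member called of 13 of the growth hormone axis. Igf1 differed by -0.49 (adjusted p = 0.418, 7-library fit -0.53, 0.296). Igfbp1, an insulin-suppressed binding protein, stood at 60.5, 23.6, 175 and 81.1 and 533, 117, 636 and 482 FPKM and passed without ethanol library 2 (3.002 ± 0.73 SE, adjusted p = 0.02).

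Metal genes gave single calls. Mt1, metallothionein 1, stood at 784, 472, 1257 and 1065 FPKM in the controls and 7452, 12157, 1656 and 3296 FPKM under ethanol. The difference was 2.49 ± 0.63 (SE, adjusted p = 0.0344, 7-library fit 2.03, 0.0513), and the call was lost without control library 1, 2 or 4 or ethanol library 1, 2 or 4 (adjusted p 0.0513 to 0.115). Slc30a10, a manganese exporter, fell from 3.504, 6.46, 7.82 and 4.87 to 3.23, 1.58, 1.83 and 1.48 FPKM (log2 difference -1.13 ± 0.27 SE, adjusted p = 0.028, 7-library fit -1.06, 0.0266), and the call was lost without control library 2, 3 or 4 or ethanol library 3 or 4 (adjusted p 0.0541 to 0.0901). Hamp, the iron hormone hepcidin, stood at 873, 1975, 1359 and 1034 FPKM in the controls and 793, 218, 710.1 and 1672 FPKM under ethanol (log2 difference -0.89 ± 0.60 SE, adjusted p = 0.442, 7-library fit -0.35, 0.738), without a call. The clock genes Dbp and Per2, whose levels swing over the day, differed by -1.54 and -1.39 (adjusted p = 0.31 and 0.134). In gluconeogenesis and glycolysis, Pklr and G6pc were the 2 lower of 20. Without ethanol library 2, 1 member was lower and 1 higher, and voom with all libraries called none. G6pc, glucose-6-phosphatase, stood at 1.93 FPKM in ethanol library 2, at 13.7 to 156 FPKM in the other ethanol libraries and at 131 to 417 FPKM in the controls, with a difference of -3.28 (adjusted p = 0.0471, 7-library fit -2.33, 0.0643, lost without control library 1, 2, 3 or 4 or ethanol library 1, 2 or 4 at 0.0643 to 0.144).

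Of the whole machineries listed, most gave no call. None of 78 ribosomal protein genes, 75 nuclear-encoded genes of oxidative phosphorylation, 12 mitochondrial genome transcripts or 21 hepatocyte transcription factors was called by limma in either fit or by voom. An unadjusted p under 0.05 was seen for 13, 1, 1 and 3 of them with all libraries and for 0, 0, 1 and 0 without ethanol library 2. Over all 11298 genes it was seen for 2225 with all libraries. Of the mitochondrial transcripts, quantile normalization and a term for the title number each called 1 lower without ethanol library 2. Of 37 proteasome subunits, none was called by limma with all libraries or by voom, and 13 had an unadjusted p under 0.05. Quantile normalization called 2 of them higher with all libraries. Leaving out ethanol library 2 gave 4 higher, against 7.23% of all genes, led by Psmd8 (1.43 ± 0.36 SE, adjusted p = 0.0238), and 17 with an unadjusted p under 0.05. The difference was positive for 28 of the 37 with all libraries and for 35 without ethanol library 2, beside 5395 and 7796 of all 11298 genes. Hnf4a, the master factor of hepatocytes, stood at 119.7, 108, 204 and 159 FPKM in the controls and 148, 22.2, 164 and 159 FPKM under ethanol, where ethanol library 2 was below all others. Its difference without that library was 0.13 (adjusted p = 0.763).

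**Figure D5:**
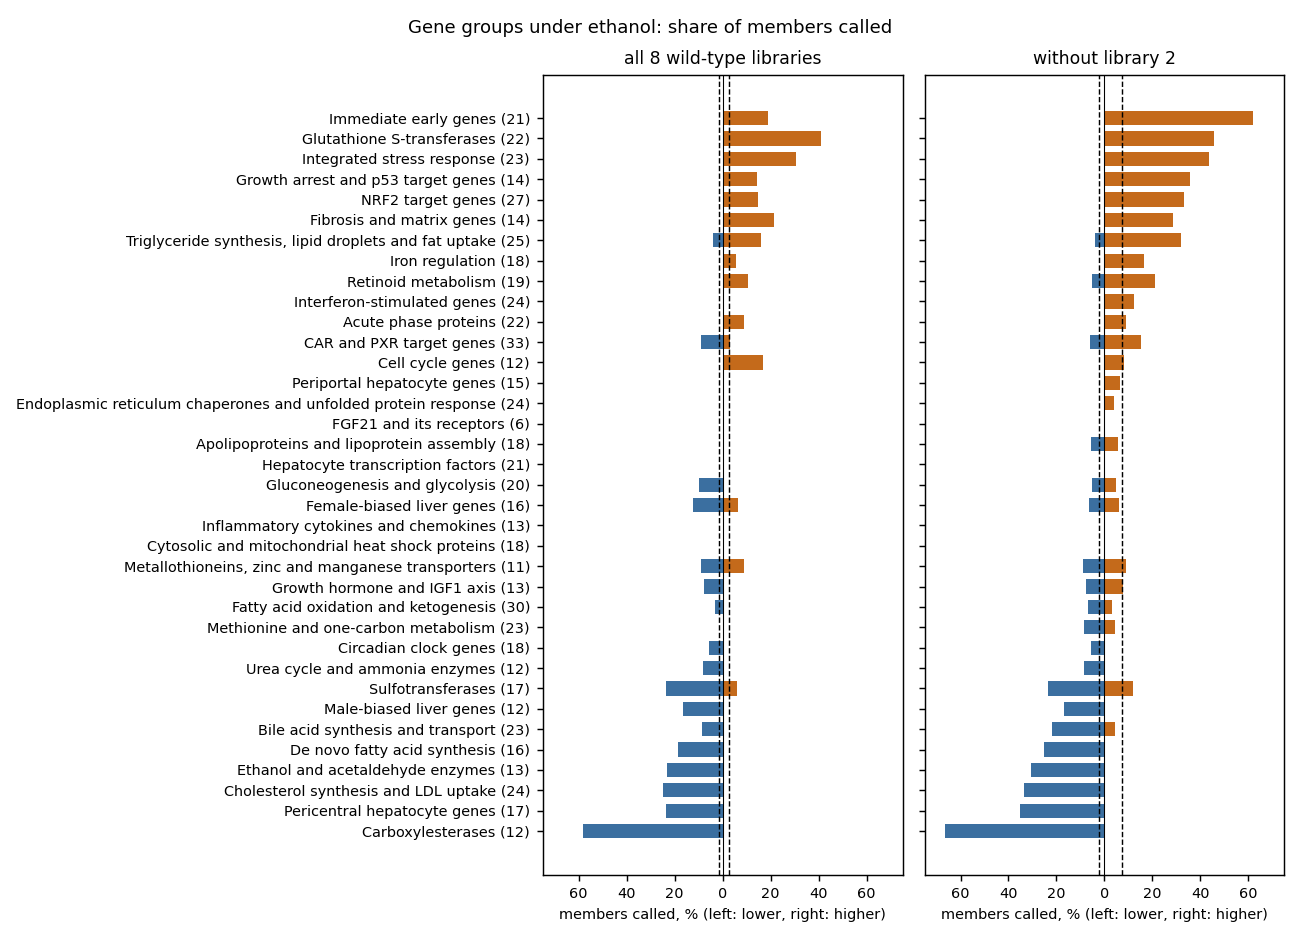
Share of the members kept that were called higher (orange, to the right) or lower (blue, to the left) in each gene group, with all 8 wild-type libraries (left panel) and without ethanol library 2 (right panel), members kept in brackets. Dashed lines give the share over all 11298 genes, 2.58% higher and 1.59% lower on the left and 7.23% and 2.25% on the right, and the longest bar for rises is that of glutathione S-transferases on the left and of immediate early genes on the right, while for falls it is that of carboxylesterases in both.

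Leaving out ethanol library 2 added 629 genes and removed 30. Of the 535 that only then were higher, ethanol library 2 lay above the control range for 116, within it for 140 and below it for 279. Of the 94 that only then were lower, it lay below the control range for 71, within it for 13 and above it for 10. Of the added rises whose 3 remaining ethanol libraries lay above every control, those with the largest change, passing over predicted genes and pseudogenes, were Apoa4, Ly6d, Tnfrsf12a, Igfbp1, Btg2, Nid1, Gdf15, Lyve1, S100a11 and Col4a1. Tnfrsf12a, the receptor of TWEAK, stood at 10.02, 7.79, 12.3 and 8.22 FPKM in the controls and 119, 13.4, 68.8 and 89.3 FPKM under ethanol (3.12 ± 0.62 SE, adjusted p = 0.00811 without ethanol library 2). S100a11 stood at 5.75, 5.41, 9.96 and 5.63 and 10.6, 14.4, 42.6 and 172 FPKM (2.57 ± 0.73 SE, adjusted p = 0.0385). Among the added falls whose 3 remaining ethanol libraries lay below every control, those with the largest change included Pcp4l1, Ces1e, Slco1b2, Gamt, Fdft1, Pank1, Slc17a2 and Afm. Gamt, of creatine synthesis, stood at 183, 270.4, 284 and 388 FPKM in the controls and 77.0, 123, 158 and 101 FPKM under ethanol (-1.33 ± 0.38 SE, adjusted p = 0.0376).

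Zfp36l1 and Fgf21, the genes of the study's title, and Klb, the co-receptor of FGF21, were not called in wild-type liver. Zfp36l1 (chr12:80107754-80113013 of GRCm38) stood at 9.79, 9.30, 25.5 and 14.8 FPKM in the controls and 9.87, 13.1, 21.0 and 23.3 FPKM under ethanol, and the groups overlapped. The difference was 0.21 ± 0.32 (SE, adjusted p = 0.764), and 0.29 ± 0.34 (adjusted p = 0.622) without ethanol library 2. Fgf21 (chr7:45613886-45615490), a hormone released by stressed liver that lowers alcohol intake and fat storage, stood at 3.95, 4.28, 37.2 and 8.05 FPKM in the controls and 16.2, 3.15, 55.3 and 48.9 FPKM under ethanol. Control library 3 was above ethanol libraries 1 and 2. The difference was 1.12 ± 0.82 (SE, adjusted p = 0.48), and 1.90 ± 0.75 (adjusted p = 0.122) without ethanol library 2. Klb stood at 6.54, 8.39, 7.54 and 7.90 FPKM in the controls and 5.31, 0.730, 8.56 and 9.22 FPKM under ethanol. The difference was -0.58 ± 0.40 (SE, adjusted p = 0.453), with ethanol library 2 the lowest, and -0.01 ± 0.21 (adjusted p = 0.984) without it. Zfp36 and Zfp36l2, the other family members kept, differed by -1.41 and -0.68 with all libraries and by -0.50 and -0.07 without ethanol library 2, none past the test.

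Set beside the ethanol response of the knockout livers, the wild-type calls had the same sign in 459 of 472 genes, and in 1048 of 1071 without ethanol library 2. Over all 11298 genes the sign was shared by 63.6% and 72.2%. The knockout comparison called 48 genes (0.425%), and 31 of these were called in wild-type too. The difference between the 2 responses was called for no gene by limma in either fit or by voom. Of all 11298 genes, 362 had an unadjusted p under 0.05 (499 without ethanol library 2). Zfp36l1 itself, the gene deleted, stood at 1.17 ± 0.286 and 1.15 ± 0.610 FPKM (mean ± SD, n = 4) in the knockout livers on control and ethanol diet, against 14.9 ± 7.54 and 16.8 ± 6.37 FPKM in wild-type. In the knockout (means ± SD, n = 4) Cyp2b10 went from 4.27 ± 1.53 to 576 ± 209 FPKM (log2 difference 6.75, adjusted p = 1.32e-07). Gstm3 went from 14.3 ± 6.41 to 306 ± 184 FPKM (log2 difference 4.04, adjusted p = 0.00749), and Adh4 from 69.98 ± 13.2 to 17.5 ± 4.96 FPKM (log2 difference -1.96, adjusted p = 0.00563). Sult3a1 went from 97.2 ± 63.9 to 18.9 ± 21.7 FPKM (log2 difference -2.22, adjusted p = 0.658), beside 86.8 ± 56.5 to 3.87 ± 7.24 FPKM in wild-type. Its difference between genotypes had a limma adjusted p of 0.927. The median difference of the cholesterol synthesis genes was -0.57 in the knockout and -1.19 in wild-type, and that of the stress response genes was 0.55 and 1.36. Whether these lists differ between genotypes was not tested.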

How the data were processed

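Liver RNA of 16 mouse libraries in 4 groups was read from 1 deposited table of FPKM values, which the authors made from their reads per gene. FPKM is mapped fragments scaled by gene length and library depth. The submitters' processing notes name fastp, STAR 2.6.1, HTSeq, DESeq2 and the genome mm10, with no role or order. Sequencing strand, handling of reads shared between genes and the gene length used are not given in the sources used here. Symbols and positions came from GENCODE M21 on GRCm38 by gene identifier, and 34490 of 35275 identifiers had a symbol.

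Genes at 1 FPKM or more in at least 4 of 16 libraries were kept, 11298 in all. Genes such as Timp1, Cbr3 and Atf3, below 1 FPKM in all wild-type controls, were kept only through other libraries. Low genes without such a rise were dropped. The values log2(FPKM + 1) were fitted with limma 3.58.1 in R 4.3.3 as 4 group means with a trended prior, and p-values were adjusted by Benjamini-Hochberg over all kept genes, with calls at 0.05. The 8 knockout libraries shared the estimate of the spread. Single library values were compared by exact two-sided permutation tests with scipy 1.17.1 and adjusted over 15 values. Whole reads were recovered from the steps of the FPKM values, with a tolerance of 0.02: all 20520 genes above 0 in at least 4 libraries gave whole reads in every library. The reads gave the depths printed and a count test with voom, which called 340 genes, 230 higher and 110 lower. On simulated data 98.5% of 196 genes changed 4-fold in this comparison were called, and 4.93% of the calls were unchanged genes. These are rates for the simulated libraries, and whether they hold for the liver libraries was not tested. In wild-type liver the number of genes called ran from 58 with the wild-type libraries alone to 4334 with array weights.

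Named genes were Zfp36l1, Fgf21 and Klb, the 15 largest rises and 15 largest falls among called genes whose groups did not overlap, the 10 and 10 largest among genes called only without ethanol library 2, and per list up to 4 called members by adjusted p, or up to 2 where none was called. Members that define a list were added, and some genes that the rule names are not reported here. Pseudogenes, unnamed genes and those with a predicted-gene name were passed over. Genes named in lists of additional calls, Gstp1, Gstm1, Gstm2, Gsta4, the Cyp2b relatives, Hspb1, Stab2, Clec4g, Psmd8 and others outside that rule were chosen after their values were seen, as were the 6 nervous-tissue genes. The groups, the 53 gene lists and the tests were chosen with earlier results of these data known. Promoters came from RefSeq for GRCm38.p6. The labels carry no batch, and only the numbers in the titles were used to split libraries. Alternatives were leaving out each library, pseudocount 0.1, no filter, a filter at 5 FPKM, quantile, equal-sum and median-of-ratios scaling, array weights, a term for the title number, the wild-type libraries alone, and voom. Fitting wild-type libraries alone without ethanol library 2 was chosen after seeing the data.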

Additional observations from a re-analysis of the deposited data

Results flagged for a closer look

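Of 107 groups of 4 libraries tested, 17 held 1 library far from the other 3. Chance alone flags about 1 in 20 groups, but 6 of the 17 were nervous-tissue genes chosen after their values in ethanol library 2 were seen, so the count is not set against that rate. Of the 17, 11 were ethanol library 2. It stood apart for the summed erythroid markers (2160 FPKM), for the nervous-tissue genes Mbp (120.5 FPKM), Mobp (38.9 FPKM), Mag (18.5 FPKM), Mog (4.27 FPKM), Gfap (24.9 FPKM) and Snap25 (16.2 FPKM), and for the Y-linked genes Ddx3y (1.43 FPKM), Kdm5d (0.178 FPKM), Eif2s3y (0.520 FPKM) and Uty (0.427 FPKM).

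The other 6 were in single genes of other libraries. Control library 3 was the highest control for Lcn2 at 55.3 FPKM, and control library 4 was the highest control for Cidec at 4.30 FPKM and for Ces3a at 472.5 FPKM. Control library 2 was the lowest control for Slc22a26 at 49.8 FPKM. Ethanol library 3 was the lowest ethanol library for Krt18 at 226 FPKM, and ethanol library 1 was the highest for Sult3a1 at 14.7 FPKM.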

How the results depend on the processing

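Recomputed were the 109 genes chosen by rule that were called with all libraries or without ethanol library 2, Zfp36l1, Fgf21 and Klb included. Among these no direction turned under any alternative except that of Klb, which was 0.14 with array weights. Genes named without a call did turn without ethanol library 2, among them Cps1 (-0.30 to 0.81) and Hspa5 (-0.30 to 0.42). Over the leave-one-out fits 230 results of the 109 genes lost the call, 33 gained it and 609 kept their side of the threshold. Over the other alternatives 177 lost it, 94 gained it and 1023 kept their side. Leaving out 1 wild-type library at a time gave 146 to 1071 calls (89 to 817 higher, 57 to 271 lower), where the higher calls were 178 without control library 3, and 0 to 6 genes whose response differed between genotypes. The wild-type libraries alone gave 58 calls (35 higher, 23 lower). No filter gave 283 (183 and 100) and a filter at 5 FPKM 257 (136 and 121). Quantile normalization gave 932 (470 and 462), equal sums 253 (133 and 120), median of ratios 732 (307 and 425) and voom 340 (230 and 110). Array weights, which gave ethanol library 2 a weight of 0.0418, gave 4334 (3539 and 795), with 506 differences between genotypes. Without ethanol library 2, a term for the title number gave 1569 calls (1203 and 366), quantile normalization 1098 (578 and 520), and the wild-type libraries alone 168 lower calls. The median difference over all genes was -0.02, and 0.17 without ethanol library 2, -0.12 with equal sums and -0.08 with median of ratios. The cause of these shifts was not tested. Some library-level differences, ethanol minus control, turned with 1 library left out. Mitochondrial reads ranged from -0.272 to 6.02 percentage points, summed FPKM from -3031 to 103107, and the summed markers of cholangiocytes from -5.64 to 14.3 FPKM, of lymphocytes from -0.621 to 1.74 FPKM and of erythroid cells from -1.29 to 685 FPKM, each lowest without ethanol library 2. Pancreatic acinar markers ranged from -0.0744 to 0.0140 FPKM, the highest without control library 4. No paired analysis was run, because no title number is shared between the diet groups and the labels do not pair animals. Some title numbers are neighbours across the diets, and whether these mark pairs is not stated. Depth limits ethanol library 2 most, with 9890475 reads.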
